A study of Rattus norvegicus with 448 samples.

Results

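Hspa5, Xbp1, Ddit3 and Asns are 4 genes of the cell's response to unfolded protein in the endoplasmic reticulum and to shortage of amino acids. They were chosen by their Ensembl gene IDs (ENSRNOG00000018294 for Hspa5, ENSRNOG00000010298 for Xbp1, ENSRNOG00000006789 for Ddit3 and ENSRNOG00000007546 for Asns), and all 4 were present among the 16796 genes measured in 430 liver libraries of outbred rats. Their levels stood in a fixed order in nearly every liver, with Hspa5 highest (median 260.9 FPKM, fragments per kilobase of gene length, scaled by library), then Xbp1 (135.4 FPKM), Ddit3 (13.92 FPKM) and Asns (0.962 FPKM). The 4 genes did not all go together. Hspa5 and Xbp1 went together weakly (r = 0.257 over libraries), as did Ddit3 and Asns (r = 0.148). Xbp1 was lower where Ddit3 was higher (r = -0.565), and this relation was no longer past the threshold once the main axis of variation among these livers was regressed out (r = -0.0897, adjusted p = 0.116, permutation test).

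In the endoplasmic reticulum, newly made secreted proteins are folded with the help of the chaperone BiP, the product of Hspa5, and the hepatocyte is a cell with a heavy load of such proteins. When unfolded protein builds up, BiP leaves the sensors of the reticulum membrane. The sensor IRE1 then splices the Xbp1 transcript into a form that codes for an active transcription factor of folding and secretory genes, and ATF6 switches on Hspa5 and Xbp1 themselves. The sensor PERK, and on lack of amino acids the kinase GCN2, slow translation and raise the transcription factor ATF4, whose targets include Ddit3, which codes for CHOP, a transcription factor tied to cell death under lasting stress, and Asns, which codes for asparagine synthetase, the enzyme that makes asparagine.

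All animals were rats aged 17 weeks, per the labels, and all libraries were liver, in 1 group. The labels give no sex, treatment, genotype, family or batch, and do not say that each library is a separate animal, so p-values measure only the spread between these libraries. The study searched the genome for loci behind metabolic traits and asked whether liver genes under local genetic control lie on the path to those traits; no genotype was used here. The median library held 24585969 reads as recovered from the deposited values (range 186427 to 61321320), and 10 libraries held under 5000000. The 22 libraries (5%) with the fewest genes above 0 stand apart from the others in several results; they are called the sparse libraries here, and those results are given with and without them. Since these are pieces of whole liver, fewer cells of a type and less RNA per cell cannot be told apart. The liver label could not be checked against marker genes, because gene names for the other IDs were not at hand.

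The promoters of Hspa5 and Xbp1 are shown because both hold a match to the endoplasmic reticulum stress element (ERSE), the site known to be read by ATF6 together with NF-Y. The letters searched were CCAAT, then any 9 bases, then CCACG, on both strands, in the 250 bases before and 50 bases after each annotated start in RefSeq's table (build GRCr8). The authors' build is not given in the sources used here, and no coordinate of theirs was used. The 250 bases before each start follow, 5′ to 3′ on the gene's strand, with the element in capitals; Hspa5 lies at chr3:38452766-38453015 and Xbp1 at chr14:84604373-84604622, both on the plus strand.
Hspa5: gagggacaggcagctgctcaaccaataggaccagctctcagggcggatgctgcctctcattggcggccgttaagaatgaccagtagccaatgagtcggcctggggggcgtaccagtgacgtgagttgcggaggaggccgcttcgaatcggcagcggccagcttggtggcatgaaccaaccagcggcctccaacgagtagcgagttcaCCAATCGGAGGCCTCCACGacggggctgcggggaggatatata
Xbp1: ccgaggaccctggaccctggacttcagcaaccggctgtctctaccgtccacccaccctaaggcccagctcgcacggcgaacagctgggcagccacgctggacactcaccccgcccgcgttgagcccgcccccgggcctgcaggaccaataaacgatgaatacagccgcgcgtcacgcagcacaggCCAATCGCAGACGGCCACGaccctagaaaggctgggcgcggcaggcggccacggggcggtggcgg

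In Hspa5 the element covered bases 43 to 25 before the start, and in Xbp1 bases 65 to 47 before it. Of all 33469 promoters in the table, 22 (0.0657%) held these letters on either strand. The windows of Ddit3 and Asns did not hold them, which says only that these letters are not in those 300 bases. The element starts with a CCAAT box, and the shorter letters CCAAT alone occurred 4 times in the window of Hspa5 (3 on the plus strand and 1 on the other), 2 times in that of Xbp1, 1 time in that of Ddit3 and not in that of Asns, against 37.5% of all promoters with at least 1. Letters known from other stress elements were not found in any of the 4 windows: ATTGG, then any 1 base, then CCACG (ERSE-II, in 0.0508% of promoters), TGACGTGG (0.595%), TGATGAAAC (the amino acid response element known from Asns, 0.209%) and TGATGCAAT (known from Ddit3, 0.188%). Again this says only that these letters are not in those 300 bases, and sequence outside the windows was not searched. These matches are a description of the letters, and binding was not measured.

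Hspa5, the chaperone, was the most abundant of the 4, and its values spanned the narrowest range: the 95th percentile of libraries was 1.88 times the 5th, against 3.77 times for Xbp1, 3.65 for Ddit3 and 5.25 for Asns. Over the 430 libraries its lowest value was 126.7 FPKM, its median 260.9 and its highest 484.5, with an upper quartile 1.31 times the lower one (228.6). No library was above 2 times the median, and 2 were below the median divided by 2, both of them sparse libraries. On the log2(FPKM + 1) scale used for every spread and test here, the SD of Hspa5 was 0.28, below the median SD of 0.377 over the 12234 genes that passed a filter on low values (1 FPKM in 10% of libraries), and above that of 23.6% of them. Its SD was 0.108 below a smooth curve of SD on mean level over those genes. Its values rest on a median of 16721 reads, and counting noise made up 0.412% of its variance.

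Xbp1 was more variable. Its lowest value was 21.86 FPKM, its median 135.4 and its highest 527.0, with quartiles at 112.1 and 170.1. The SD was 0.58, above that of 81.3% of genes and 0.198 above the curve. Of the 23 libraries below the median divided by 2, 16 were sparse libraries, where the median of Xbp1 was 47.97 FPKM against 138.6 FPKM in the other libraries, and its SD without those libraries was 0.47. None of the 13 libraries above 2 times the median was sparse. The highest of them was library LSW_5, with 527.0 FPKM from 12829 reads. In that library Hspa5 stood at 316.1 FPKM and Asns at 1.73 FPKM, both above their upper quartiles, and Ddit3 at 9.32 FPKM, below its lower one. The values sum both splice forms of Xbp1, which gene-level values cannot tell apart.

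Ddit3 lay about an order of magnitude below Xbp1. It was listed at 0 in 1 library, and otherwise ran to 90.61 FPKM with a median of 13.92 and quartiles at 11.06 and 18.34. The library at 0, LSW_166, held 246921 reads, so that 3 reads, the limit that a count of 0 allows, would be 17.1 FPKM there, which is above the median of all libraries. The SD was 0.61, above that of 83.8% of genes and 0.239 above the curve. Ddit3 was above 2 times its median in 34 libraries, and 17 of these were sparse libraries. In the sparse libraries the median of Ddit3 was 42.62 FPKM against 13.72 FPKM in the others, the opposite direction to Xbp1, and without them its SD was 0.47. The 4 highest values were all in sparse libraries; the highest, 90.61 FPKM, came from 52 reads and has a 95% interval of 67.7 to 118.8 FPKM (exact Poisson, counting error only), and the fourth one of 60.4 to 76.3 FPKM. RefSeq places Ddit3 over 2 other genes, Mars1 and LOC134479709, and the strand setting is not given in the sources used here, so reads of the overlap cannot be told apart.

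Asns had the lowest level and the fewest reads of the 4, at 0 in 2 libraries and at a median of 0.962 FPKM from 49 reads, with quartiles at 0.684 and 1.329. Of the libraries at 0, one is LSW_166, where 3 reads would be 7.11 FPKM, and the other is LSW_271, with 978563 reads, where they would be 2.17 FPKM. The highest value, 6.787 FPKM in library LSW_226, rests on 2 reads of 186427, with an exact Poisson 95% interval of 0.822 to 24.5 FPKM. The next, 5.996 FPKM (5.37 to 6.68) in library LSW_140 of 23409678 reads, is well measured. In that library Hspa5 (278.4 FPKM) and Ddit3 (14.12 FPKM) lay between their quartiles and Xbp1 (179.1 FPKM) above its upper one. LSW_350 followed with 4.235 FPKM (3.67 to 4.86) and LSW_236 with 4.05 FPKM (3.58 to 4.56). In all, 29 libraries were above 2 times the median of Asns and 38 below the median divided by 2, of which 2 and 6 were sparse. The SD was 0.38, above that of 51.9% of genes, and counting noise made up 9.42% of the variance, the most of the 4. The SD of a gene this low rests on the pseudocount: it was 0.14 with 5 added in place of 1 and 0.505 with 0.5.

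**Figure D1:**
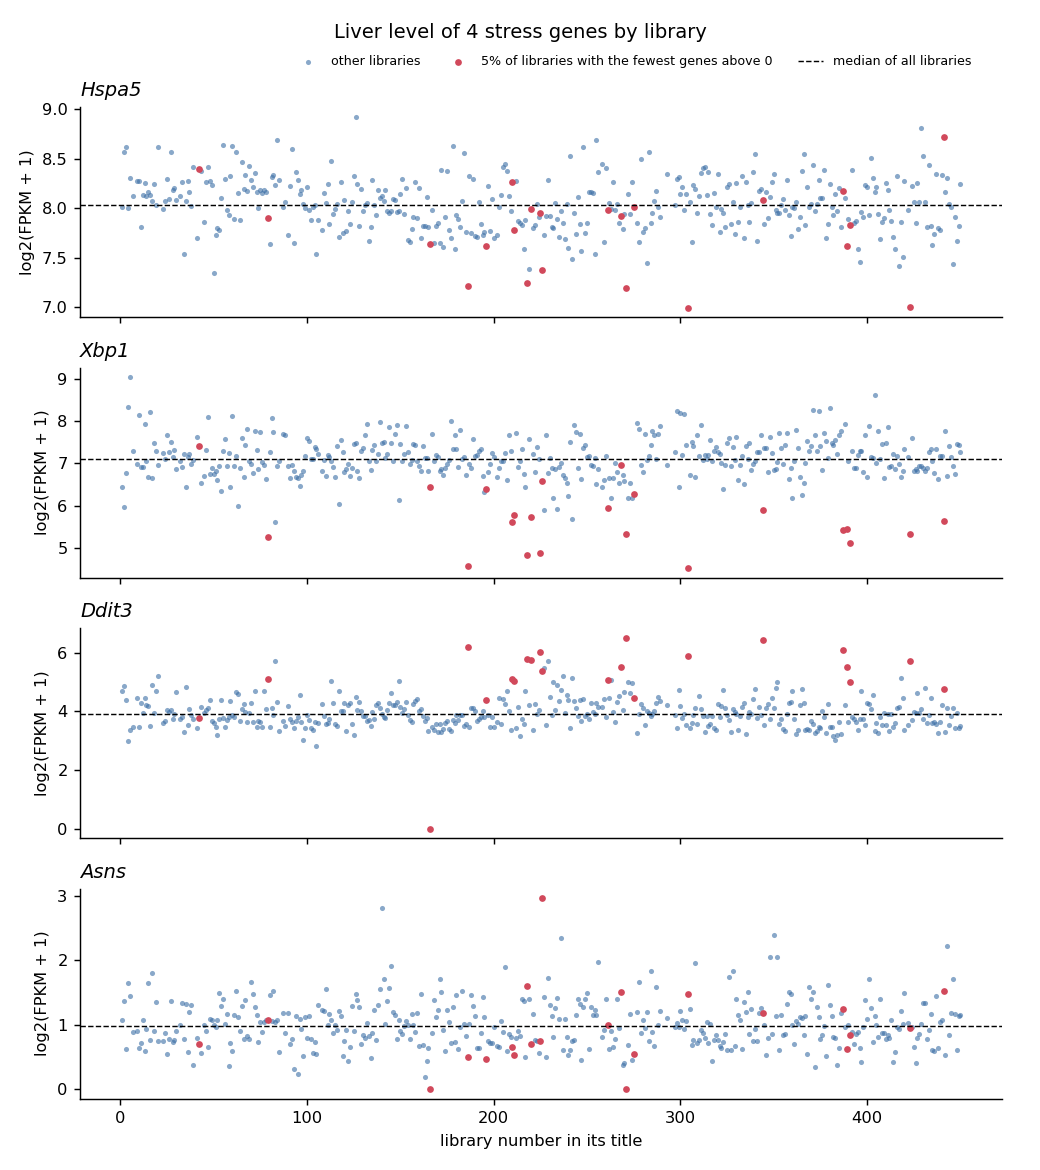
Level of each gene (log2(FPKM + 1), 1 point per library, 430 libraries) against the library's number in its title, with the median as a dashed line and the 22 sparse libraries (fewest genes above 0) in red. The red points lie mostly below the line for Xbp1 (median 47.97 FPKM) and above it for Ddit3 (median 42.62 FPKM), and on both sides of it for Hspa5 and Asns.

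The order of the levels was nearly fixed within libraries. Hspa5 was above Xbp1 in 96.98% of the 430 libraries, Xbp1 above Ddit3 in 97.4% and Ddit3 above Asns in 99.8%. FPKM are per gene length, which allows a rough comparison of levels between genes. Other differences between genes, such as the overlap of Ddit3 with 2 other genes, are not removed. The ranges over libraries overlapped for each pair of neighbours in this order: the highest Xbp1 (527.0 FPKM) was above the lowest Hspa5 (126.7 FPKM), and the highest Ddit3 (90.61 FPKM) above the lowest Xbp1 (21.86 FPKM). The highest Asns (6.787 FPKM, from 2 reads) was above the 2 lowest values of Ddit3, the 0 in LSW_166 and 6.051 FPKM. The ratios of medians were 1.93 between Hspa5 and Xbp1, 9.72 between Xbp1 and Ddit3, and 14.5 between Ddit3 and Asns.

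Xbp1 and Ddit3 were related to depth in the same direction under each scaling, and Hspa5 in a direction that depended on the libraries used. Over the 430 libraries the level of Xbp1 was higher in libraries with more recovered reads (Pearson r = 0.537 and Spearman rho = 0.462 with log10 reads, adjusted p = 2e-05 for both, two-sided permutation test with 100000 resamples, adjusted over 8 relations; the unadjusted p of 1e-05 is the smallest these permutations can give). Ddit3 was lower in deeper libraries (r = -0.401 and rho = -0.393, adjusted p = 2e-05 for both). Without the 2 libraries farthest from the median depth the values were 0.605 for Xbp1 and -0.612 for Ddit3, and without the sparse libraries they were 0.415 and -0.397 (adjusted p = 2e-05, permutation test), so both relations hold outside those libraries. With each library rescaled to a common upper quartile, r was 0.684 for Xbp1 and -0.216 for Ddit3. That quartile was taken over the values above 0 of each library, so it depends on the number of genes above 0. The rescaling lowered the median gene by over 0.1 on the log2 scale in all 22 sparse libraries. How much of any upper quartile result given here comes from the rescaling itself was not tested. Within 4 consecutive blocks of libraries by title number, the r of Xbp1 with depth was between 0.355 and 0.667, and that of Ddit3 was -0.395, -0.167, -0.680 and -0.676, with the second block not past the threshold of 0.05 (adjusted p = 0.108, permutation test). Without the 2 libraries of the second block farthest from its median depth, the r of Ddit3 there was -0.695.

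For Hspa5 the relation to depth depended on the sparse libraries: r was 0.106 over all (adjusted p = 0.0386, rho = -0.0442 with adjusted p = 0.358, permutation tests) and 0.0422 without the 2 farthest libraries. Without the sparse libraries it was -0.162 (adjusted p = 0.00124, permutation test), the opposite direction. Upper quartile rescaling of all libraries gave 0.526 (adjusted p = 2e-05; rho = 0.118, adjusted p = 0.0164, permutation tests). This rescaling lowered the sparse libraries, and its own share in that r was not tested. Within the 4 blocks, not rescaled, the r of Hspa5 was -0.150, 0.283, 0.248 and -0.105. Without the 2 farthest libraries of each block it was -0.151, 0.175, 0.0958 and 0.0491. Asns showed r = 0.0176 (adjusted p = 0.809) and rho = 0.0919 (adjusted p = 0.0743, permutation tests), and 0.0865 without the 2 farthest libraries; its 4 blocks gave 0.00263, -0.0107, 0.176 and -0.0954. Rescaled, it was 0.186 (adjusted p = 0.00024, permutation test). The number of genes above 0, the other measure of depth, gave r of 0.122, 0.547, -0.443 and 0.0116 for Hspa5, Xbp1, Ddit3 and Asns.

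**Figure D2:**
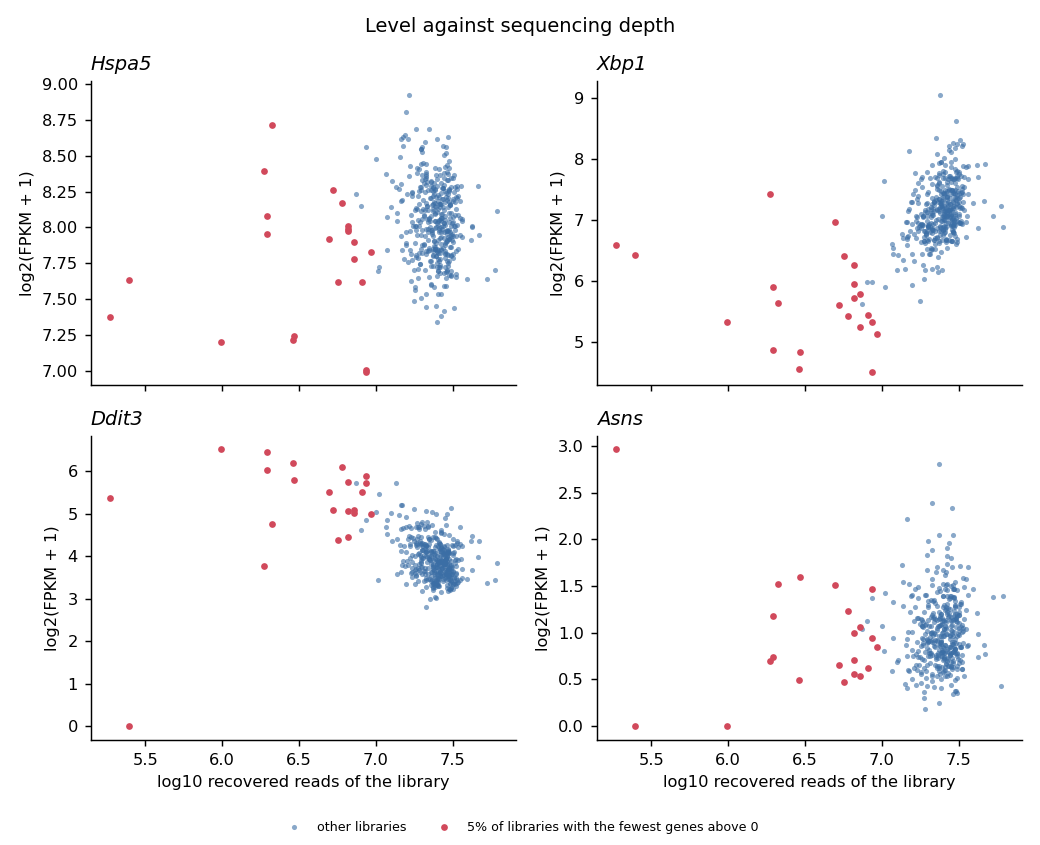
Level of each gene (log2(FPKM + 1)) against the log10 of the reads recovered for the library, 1 point per library, with the 22 sparse libraries in red. Xbp1 is higher and Ddit3 lower in deeper libraries (r = 0.537 and -0.401), and the points of Hspa5 and Asns show little slope on this scale (r = 0.106 and 0.0176, against 0.526 and 0.186 after upper quartile rescaling).

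Xbp1 and Ddit3 also followed the main axis of variation among the libraries. The first principal component of all other genes that passed the filter held 45.7% of their variance over libraries. With the component oriented so that libraries with more genes above 0 score higher, the level of Xbp1 went with it at r = 0.648 and that of Ddit3 at -0.81, while Hspa5 (0.0587) and Asns (-0.00905) did not follow it. The size of this r was above that of 77.6% of all genes for Ddit3 and of 58.2% for Xbp1, and above that of only 4.83% for Hspa5 and 0.817% for Asns. These r are across libraries and are given as a description. What sets this axis was not tested; RNA quality, cell makeup and handling are not given in the labels.

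The 6 pairs of genes were compared over libraries, since Hspa5 and Xbp1 belong to the ATF6 and IRE1 arms and Ddit3 and Asns to the ATF4 arm. All p-values of this family are from two-sided permutation tests with 100000 resamples, adjusted over the 6 pairs. The tests take libraries as independent. Libraries whose identifiers share a first part resembled each other in Asns and Xbp1 (r = 0.405 and 0.332 over such pairs, described further on), and neighbouring libraries did slightly, so these p-values, those for depth and those of limma across all libraries may be too small.

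Hspa5 and Xbp1, the pair whose promoters are shown above, were positively related (r = 0.257, adjusted p = 3e-05; rho = 0.189, adjusted p = 0.00027, permutation tests). The r was 0.207 without the 2 farthest libraries. With the first component regressed out of both it was 0.288 (adjusted p = 6e-05, permutation test), and with the first 5 components out 0.315. Without the sparse libraries it was 0.133 (adjusted p = 0.0103, permutation test), and with each library rescaled to a common upper quartile it was 0.523. Within the 4 blocks by title number it was 0.167, 0.331, 0.315 and 0.200, positive in each and past the threshold in the second and the third. In the third block it was 0.126 without the 2 farthest libraries, and rho was 0.159 (adjusted p = 0.308, permutation test). Library LSW_304 had the lowest value of both genes, with Hspa5 at 126.7 FPKM and Xbp1 at 21.86 FPKM, and Ddit3 there was at 57.98 FPKM, the sixth highest value.

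Ddit3 and Asns, both known targets of ATF4, were weakly positively related (r = 0.148, adjusted p = 0.0048; rho = 0.130, adjusted p = 0.0144; r = 0.146 without the 2 farthest libraries, permutation tests). The relation was larger after the first component was regressed out (r = 0.240, adjusted p = 6e-05) and after the first 5 (r = 0.278, adjusted p = 3e-05, permutation tests). With the first component out and without the sparse libraries it was 0.222 (adjusted p = 9e-05, permutation test), a setting chosen after the data were seen. Within the blocks it was 0.224, 0.179, 0.0174 and 0.189, past the threshold only in the first block (adjusted p = 0.0404, permutation test). Upper quartile rescaling gave 0.0987 (adjusted p = 0.0498, permutation test).

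Xbp1 and Ddit3 had the strongest relation of the 6, and a negative one (r = -0.565, adjusted p = 3e-05; rho = -0.415, adjusted p = 6e-05; r = -0.535 without the 2 farthest libraries, permutation tests). Within the blocks r was -0.456, -0.459, -0.654 and -0.688, each past the threshold. In the second block rho was -0.156 (adjusted p = 0.172, permutation test), and r was -0.305 without the 2 farthest libraries. The relation held without the sparse libraries (-0.428) and with the log10 of the reads regressed out of both (-0.453). With the first component regressed out it was -0.0897 (adjusted p = 0.116, permutation test), and with the first 5 out it was 0.0804 (adjusted p = 0.146, permutation test). With that axis out, the 2 genes were thus related neither way past the threshold. As measured, an r this far below 0 was common. An r of -0.5 or less was reached with Ddit3 by 3295 of the 12233 other genes that passed the filter, and with Xbp1 by 1434.

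The other 3 pairs were not past the threshold. Hspa5 and Ddit3 gave r = -0.0235 (adjusted p = 0.628) and rho = 0.091 (adjusted p = 0.0815), and 0.0285 without the 2 farthest libraries (permutation tests). This pair changed with the libraries used: without the sparse libraries r was 0.152 (adjusted p = 0.00386, permutation test), and within blocks it ran from 0.323 in the first to -0.0277, -0.247 and -0.0343 in the others. In the third block r was -0.0517 without the 2 farthest libraries, and rho was -0.0889 (adjusted p = 0.547, permutation test). Hspa5 and Asns gave r = 0.0778 (adjusted p = 0.159) and rho = 0.0882 (adjusted p = 0.0815, permutation tests), 0.0894 without the 2 farthest libraries, and -0.00227, 0.0421, 0.0599 and 0.223 within blocks. Xbp1 and Asns gave r = 0.0589 (adjusted p = 0.268) and rho = 0.0468 (adjusted p = 0.335, permutation tests), 0.0606 without the 2 farthest libraries, and -0.061, 0.156, 0.105 and -0.00772 within blocks. Upper quartile rescaling put both pairs with Asns past the threshold, at 0.154 with Hspa5 (adjusted p = 0.00235) and 0.163 with Xbp1 (adjusted p = 0.00124, permutation tests). That rescaling lowered the sparse libraries, and its own share in these r was not tested.

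**Figure D3:**
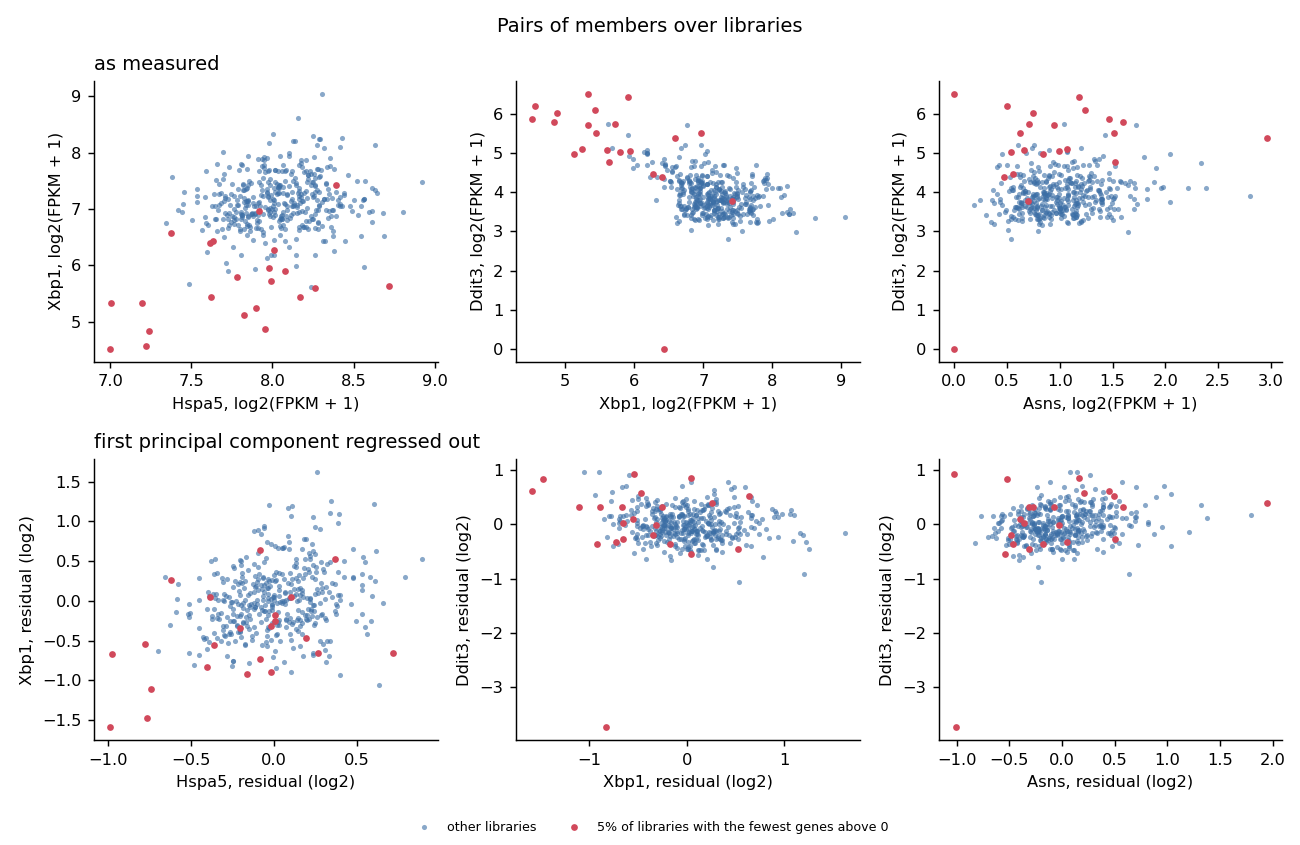
Levels of 3 pairs of genes over the 430 libraries, 1 point per library, as measured (top row, log2(FPKM + 1)) and with the first principal component of all other genes regressed out (bottom row, log2 residual), with the 22 sparse libraries in red. The slope of Xbp1 and Ddit3 (r = -0.565) is nearly flat in the bottom row (r = -0.0897), while those of Hspa5 and Xbp1 (0.288) and of Asns and Ddit3 (0.240) are positive there; the lone low point of Ddit3 is library LSW_166, where it was listed at 0.

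**Figure D4:**
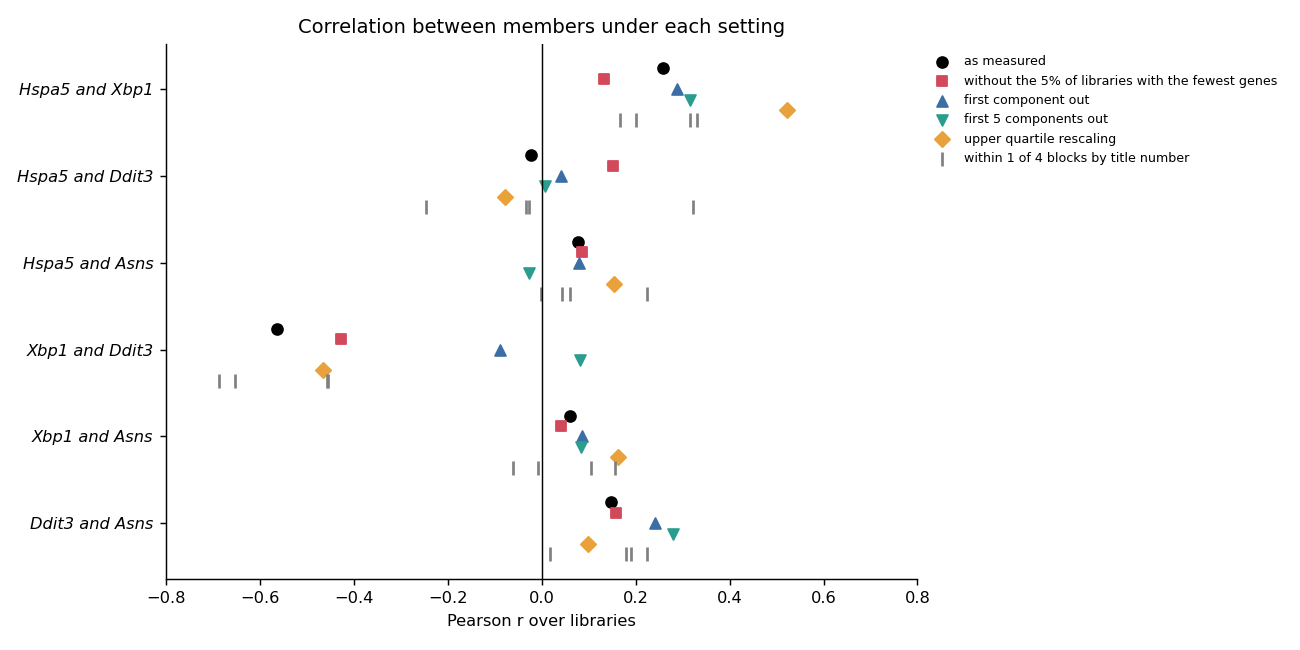
Pearson r of each of the 6 pairs over libraries, as measured and under 4 other settings (symbols) and within each of 4 blocks of libraries by title number (grey ticks). Hspa5 with Xbp1 and Ddit3 with Asns lie right of 0 under every setting drawn, and Xbp1 with Ddit3 lies left of 0 except with the first 5 components out (0.0804).

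Each gene was also set against all the others, with limma (a linear model over all genes at once, p-values adjusted over the 12233 other genes, threshold 0.05) and the first component as a covariate. The size of a relation is given as partial r, the correlation that remains given the component. At this number of libraries many genes passed: 26.8% of genes were higher and 28.5% lower where Hspa5 was higher, 22.9% and 30.8% for Xbp1, 37% and 17.5% for Ddit3, and 11.2% and 13.4% for Asns. Against that background, Xbp1 was among the genes higher with Hspa5 (partial r = 0.288, limma adjusted p = 9.72e-09), with 5.45% of genes ranked above it, and Hspa5 had 3.43% of genes above it in the ranking by Xbp1. Asns was among those higher with Ddit3 (partial r = 0.240, limma adjusted p = 2.72e-06), with 12.9% of genes ranked above it, and Ddit3 had 0.842% above it in the ranking by Asns. The other pairs were not called in either direction. The split of calls between higher and lower depended on the scaling: 48.5% of the calls were higher for Hspa5, 42.7% for Xbp1, 67.9% for Ddit3 and 45.5% for Asns, and after upper quartile rescaling 81.2%, 79.1%, 93.7% and 80.01%. That rescaling moved the median gene by over 0.1 on the log2 scale in 36 libraries, which include all 22 sparse libraries, and by as much as -1.26. The ranks depended on the component. Without it as covariate, 40.5% of genes ranked above Hspa5 by Xbp1 and 4.69% above Xbp1 by Hspa5. Likewise 35.2% ranked above Asns by Ddit3 and 4.01% above Ddit3 by Asns. For the negative pair, 78.5% ranked above Xbp1 by Ddit3 and 92.3% above Ddit3 by Xbp1.

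The number of close followers differed among the genes and, for Ddit3, with the setting. A partial r of 0.5 or more was reached by 47 genes with Hspa5, 37 with Ddit3, 12 with Xbp1 and 0 with Asns, and one of -0.5 or less by 15, 1, 7 and 0. With Ddit3 the 37 depended on the sparse libraries, without which 0 genes reached 0.5, against 52 for Hspa5, 13 for Xbp1 and 1 for Asns. With a pseudocount of 0.5 there were 84 for Ddit3 and 45 for Hspa5, the reverse order. With no component as covariate there were 2262 for Ddit3, 1864 for Xbp1 and 28 for Hspa5. With the first component as covariate, the gene most like Hspa5 was ENSRNOG00000014201 (partial r = 0.829 over 430 libraries). The gene most like Ddit3 was then ENSRNOG00000013454 (0.647). The lowest partial r were -0.644 for ENSRNOG00000013907 with Xbp1 and -0.609 for ENSRNOG00000014650 with Hspa5. The highest partial r with Xbp1 was 0.630 and with Asns 0.470, each below the highest with Hspa5. The genes at these ends depended on the component. With none as covariate, other genes were highest with Hspa5 (0.769) and Ddit3 (0.882) and lowest with Hspa5 (-0.556) and Xbp1 (-0.736). With the first 5 components, other genes were highest (0.833) and lowest (-0.491) with Hspa5, while the genes named for Ddit3 and Xbp1 kept their places. The gene most like Asns was the same in each of these settings. No names were at hand for the 4 IDs printed here, and chaperones, degradation factors and other ATF4 targets, fixed as 6 lists of symbols, could not be looked up.

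Each library's identifier has a first part that other libraries may carry too, and the labels do not explain it. Of the first parts, 92 were shared, 83 of them by 2 libraries and 9 by 3. Resemblance was tested with limma's moderated F test over 12234 genes with a spline of the title number as covariate, and its size is the intraclass correlation (ICC): 1 where libraries with a common first part are alike and all variance is among first parts, 0 where they are no more alike than others. Of all genes, 54.7% were called at an adjusted p under 0.05, and the median ICC was 0.199. Of the 4 genes, 2 were called. Asns had an ICC of 0.399 (limma adjusted p = 0.00022), above that of 93.6% of genes, and Xbp1 one of 0.301 (limma adjusted p = 0.00341), above 80.6%. Ddit3 had an ICC of 0.0986 (limma adjusted p = 0.158) and Hspa5 one of -0.046 (limma adjusted p = 0.684), above that of 16.6% and 1.33% of genes.

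Ddit3 changed side when the first component was added as a covariate. Its ICC was then 0.292 (limma adjusted p = 0.00378), beside 0.406 for Asns, 0.277 for Xbp1 and -0.0625 for Hspa5, with 54.3% of all genes called. With the sparse libraries left out 26.3% of genes were called, and the ICC was 0.448 for Asns (limma adjusted p = 6.56e-05), 0.333 for Xbp1 (0.0029), 0.0848 for Hspa5 and -0.000984 for Ddit3, so that Asns and Xbp1 were again called and the other 2 were not. The ICC of Hspa5 was then above that of 35.4% of genes in place of 1.33%, so its low rank rests on the sparse libraries.

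The pairs of libraries show this directly. Over the 110 pairs with a common first part, the values of Asns in the pair went together at r = 0.405, against 0.0202 over 2350 pairs of neighbours with different first parts (title numbers at most 6 apart) and -0.00336 over 89775 distant pairs. The median difference within a pair was 0.242 on the log2 scale for sharing pairs, 0.325 for neighbours and 0.338 for distant pairs. For Xbp1 the r were 0.332, 0.0547 and -0.00426, with median differences of 0.319, 0.429 and 0.467. For Ddit3 sharing pairs (0.134) did not stand out from neighbours (0.143), but did with the first component regressed out (0.309 against 0.12). Its median differences were 0.371, 0.417 and 0.479. For Hspa5 the r was 0.0294 over sharing pairs and 0.0719 over neighbours, while the median difference was 0.199 in sharing pairs, 0.242 in neighbours and 0.265 in distant pairs, so the 2 measures differed in which pairs were closer. These r are descriptions, since a library enters several pairs.

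The 9 sets of 3 libraries give the same values library by library. The highest value in a set was 1.02 to 1.89 times the lowest for Hspa5 (median 1.25), 1.16 to 1.84 times for Xbp1 (median 1.37), 1.14 to 1.88 times for Ddit3 (median 1.39) and 1.24 to 4.03 times for Asns (median 1.49). It was over 2 times the lowest in 3 of the 9 sets for Asns and in none for the other genes. In the set of libraries LSW_51, LSW_53 and LSW_55, Hspa5 was at 210.9, 218.2 and 398.4 FPKM, Xbp1 at 112.6, 122.4 and 154.7 FPKM, Ddit3 at 10.06, 12.33 and 12.6 FPKM and Asns at 0.952, 1.811 and 1.634 FPKM. The 3 sets in which Asns differed most were LSW_381, LSW_383 and LSW_384 (1.206, 0.734 and 0.299 FPKM), LSW_440, LSW_443 and LSW_445 (1.098, 3.65 and 1.262 FPKM), and LSW_286, LSW_288 and LSW_289 (0.597, 0.988 and 1.311 FPKM). Libraries LSW_244, LSW_246 and LSW_248 had Asns at 1.21, 1.499 and 1.423 FPKM, the closest set.

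**Figure D5:**
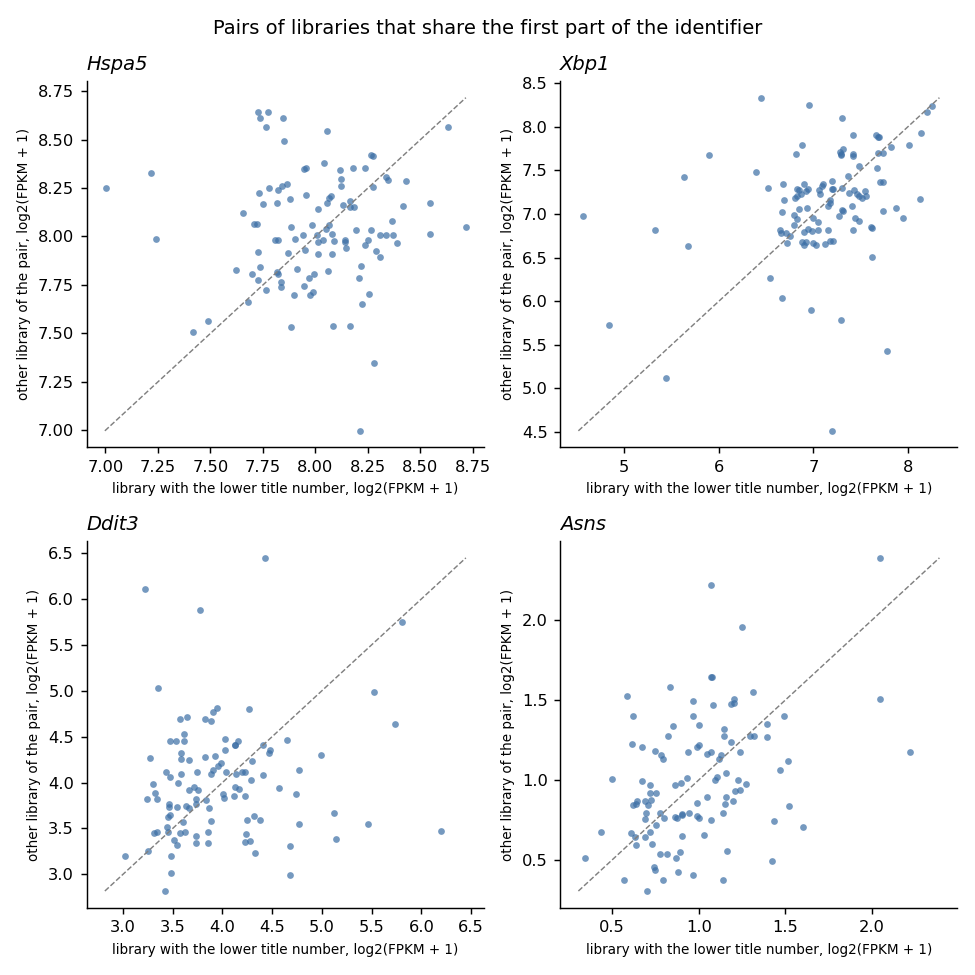
Level (log2(FPKM + 1)) of each gene in both libraries of the 110 pairs with a common first part of the identifier, the library with the lower title number on the x axis; the dashed line marks equal levels. The points of Asns and Xbp1 follow the line loosely (r = 0.405 and 0.332), and those of Hspa5 do not (r = 0.0294).

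None of the 4 genes had a called trend along the series. By limma, 8.18% of genes were called for a linear trend along the title numbers, and 0 of these 4. At an unadjusted p under 0.05 only Hspa5 passed, as it did with limma-voom on the recovered reads, where it was also not called (adjusted p = 0.0606). Its slope was -0.028 log2 units per 100 libraries (SE 0.0105, limma adjusted p = 0.0808). The median of Hspa5 was 284.6 FPKM in the block with the lowest title numbers and 244.8, 256.5 and 256.8 FPKM in the following ones. For Xbp1, Ddit3 and Asns the limma adjusted p was 0.965, 0.999 and 0.945. Their block medians ran from 132.2 to 142.5 FPKM, from 12.47 to 15.9 FPKM and from 0.877 to 1.003 FPKM.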

How the data were processed

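Liver RNA was extracted with Trizol and read as 37 bp pairs on an Illumina HiSeq, per the labels. The submitters' processing notes list the tools STAR, Picard, featureCounts and DESeq2, with no version. For the genome build, annotation and strand, nothing is given in the sources used here. The labels list 448 libraries, of which 430 carry an identifier that matched 1 column of the deposited table; the other 18 are not analysed here, and 1 column that matched no label was not used. No unit stands in the header. The values deposited by the authors behave as FPKM: within a gene and library they were whole multiples of a step for 99.9974% of values above 0 (tolerance 0.001), which gave reads back. A library's step followed a median-ratio size factor (coefficient of variation of their product 0.000198) and not the total reads (0.0832). Depths are therefore reconstructions, and counting limits cover counting error only.

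Tests used log2(FPKM + 1), understating differences of low genes, and limma 3.58.1 in R 4.3.3 on the 12234 genes that reached 1 FPKM in 10% of libraries, with Benjamini-Hochberg adjustment and a threshold of 0.05; permutation tests used scipy 1.17.1 and numpy 2.4.6 in Python 3.11.15. The principal components leave out the 4 genes. Blocks are 4 consecutive sets of libraries by title number, the only order the labels give. The rule for other named genes was the highest and lowest partial r with each gene; since 0 of 16796 IDs could be paired with a symbol in RefSeq's table, at most 2 IDs in each direction are printed, and 6 gene lists and 7 marker sets could not be run. Pseudocounts of 0.5 and 5, no filter or one at 10 FPKM, upper quartile rescaling, leaving out the 22 sparse libraries, components, depth or a spline (4 degrees of freedom) as covariates, normal scores and blocks were tried as other settings; limma-voom on the recovered reads, and the first component together with leaving out the sparse libraries, were chosen after seeing the data. Read recovery, the limma fits in the main setting and the permutation test were tried on simulated data, and the other steps were not. How these steps behave where genes share a main axis of variation was not tested. The 4 genes and the lists were chosen with earlier results of these data known.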

Additional observations from a re-analysis of the deposited data

How the results depend on the processing

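No paired analysis was possible because the series has 1 group. Depth limits Asns and the sparse libraries most. In each case below the cause was not tested, except that a filter at 10 FPKM tests fewer genes.

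The SD moved with the setting. Upper quartile rescaling gave 0.35 for Hspa5, 0.67 for Xbp1 and 0.54 for Ddit3. Without the sparse libraries it was 0.265, 0.47 and 0.47 for these, and 0.37 for Asns. A pseudocount of 5 gave 0.56 for Xbp1, 0.49 for Ddit3 and 0.14 for Asns, and one of 0.5 gave 0.64 for Ddit3 and 0.505 for Asns.

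Among pairs, the relation of Hspa5 with Xbp1 missed the threshold in the first (0.167) and last block (0.200), and that of Ddit3 with Asns in the second (0.179), the third (0.0174) and the last (0.189). Xbp1 with Ddit3 gave -0.0897 with the first component out, -0.0965 without the sparse libraries as well, and 0.0804 with 5 components out. Hspa5 with Ddit3 turned positive without the sparse libraries (0.152), with 1 (0.0411) or 5 components (0.00756), reads (0.0210) or the spline (0.00205) regressed out, with the first component out and without the sparse libraries (0.117), and in the first block (0.323). It was -0.247 in the third block, and -0.0517 there without the 2 farthest libraries. Hspa5 with Asns gave 0.154 on upper quartile rescaling, -0.0283 with 5 components out and -0.00227 in the first block. Xbp1 with Asns gave 0.163 on upper quartile rescaling, and -0.0610 and -0.00772 in the first and last block.

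The relation of Hspa5 to reads turned to -0.162 without the sparse libraries and to -0.150 and -0.105 in the first and last block. That to genes above 0 turned to -0.186, -0.155 and -0.0873. In the last block the 2 relations were 0.0491 and 0.0749 without the 2 farthest libraries. Upper quartile rescaling gave 0.526 and 0.552 for Hspa5. The same rescaling gave -0.216 and -0.255 for Ddit3. Ddit3 in the second block gave -0.167 with reads and -0.215 with genes above 0, and -0.695 and -0.754 without the 2 farthest libraries. Asns with reads gave -0.0425 at a pseudocount of 5, 0.186 on upper quartile rescaling, and -0.0107 and -0.0954 in the second and last block. With genes above 0 it gave -0.0511, 0.188, and in the blocks -0.0182, -0.0400, 0.220 and -0.0761.

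The ICC of Ddit3 passed the threshold with 1 (0.292, 54.3% of all genes called) or 5 components (0.324, 56.1% called) as covariates. It also passed with normal scores, where 85.8% of all genes were called. Its ICC there was 0.0836, above that of only 12.3% of genes. No other call on resemblance changed in the 43 values computed.

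Slopes over the title number, none past the threshold, changed sign for Xbp1 without the sparse libraries (0.0196), with 1 (0.00713) or 5 components (0.00893), normal scores (0.00896) and limma-voom (0.00112), for Ddit3 under the same settings (-0.0270, -0.0129, -0.00608, -0.0243 and -0.0167), and for Asns with limma-voom (-0.00202).

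Counts of genes varying with each gene moved by over 1.5 times. Upper quartile rescaling gave 7387 higher and 1708 lower for Hspa5, 7033 and 1855 for Xbp1, 7991 and 539 for Ddit3, and 2665 and 666 for Asns, against 3281 and 3484, 2807 and 3763, 4521 and 2140, and 1375 and 1645. A filter at 10 FPKM, with 6174 genes tested, gave 2074 and 1714 for Hspa5, 1718 and 1696 for Xbp1, and 1840 and 1350 for Ddit3. As shares these were 33.6% and 27.8%, 27.8% and 27.5%, and 29.8% and 21.9%. The filter at 1 FPKM gave 26.8% and 28.5%, 22.9% and 30.8%, and 37% and 17.5%. Asns did not pass the filter at 10 FPKM. With no component as covariate there were 2321 lower for Hspa5, 6463 higher for Xbp1, 6337 lower for Ddit3, and 665 higher and 671 lower for Asns. With 5 components 2151 were lower for Xbp1. Normal scores gave 2741 higher for Ddit3 and 871 lower for Asns, and 1019 were lower for Asns without the sparse libraries.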
